A study of Mus musculus with 12 samples.

Results

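Genes of the endothelium and of the angiopoietin-Tie pathway were followed in whole mouse lung across birth. They were 10 genes, of 16152 in the deposited count table: *Pecam1*, *Cdh5*, *Sox17*, *Sox18*, *Erg*, *Angpt1*, *Angpt2*, *Tek*, *Tie1* and *Klf2*. They were picked by symbol with earlier results of these data known, so the choice was not blind to their values. The paper had already described a rise of *Sox17*, *Pecam1* and *Cdh5* over development in the same libraries. Shares of all genes given beside those of the chosen genes are therefore descriptions and not a test. All 10 had counts in each library and passed the filter on low counts (a minimum of 1 CPM, counts scaled to the mapped reads of a library, reached by 3 or more libraries). RNA was sequenced from C57BL/6 lungs of both sexes at 4 time-points, the embryonic days E15.5 and E18.5 and the postnatal days P5 and P8, with 3 libraries each. The labels name no transgene, deletion or treatment for any group. Littermates were the replicates of each time-point, so litter and time-point cannot be told apart and p-values measure only the spread between littermates. Because whole lung was sequenced, more endothelial cells and more RNA of a gene per endothelial cell cannot be told apart.

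Endothelial cells line all blood and lymphatic vessels. They are held together by junctional proteins such as the cadherin encoded by *Cdh5* and the adhesion molecule encoded by *Pecam1*, and their identity is kept by transcription factors of the ETS family (*Erg*) and the SOXF family (*Sox17*, *Sox18*). In the angiopoietin pathway, ANGPT1, secreted mainly by cells around the vessel, activates the receptor tyrosine kinase TEK (also known as TIE2) and stabilizes vessels. ANGPT2, released by endothelial cells themselves, acts in most settings as a context-dependent antagonist of ANGPT1, and TIE1 is a second receptor of the family that modulates TEK signalling. *Klf2* encodes a Krüppel-like factor that is induced in endothelium by laminar flow and is also expressed in lymphocytes and other leukocytes. The gas-exchange capillaries of the lung expand while airspaces divide after birth.

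The libraries held between 41337443 and 53901957 counts. Endothelial defining markers were present at each time-point, with *Cdh5* at 227 CPM or above and *Pecam1* at 198 CPM or above in each library. Libraries differed within a time-point in genes of the thymus, an organ next to the lung. The sum of 11 such genes was 65.5 CPM in E15.5 replicate 2 against 7.07 and 7.69 CPM in replicates 1 and 3. At P8 it was 179.6, 353 and 13.9 CPM in replicates 1, 2 and 3, and it was between 4.84 and 9.45 CPM in the 6 libraries of E18.5 and P5. Comparisons that involve E15.5 or P8 are therefore also given without these 3 libraries where that changed a call. Such a fit has 1 library left at P8, replicate 3, and so no spread within P8. The E18.5 to P5 comparison uses these 3 libraries only for the shared estimate of the spread. Markers of the other main lung cells moved unevenly from E18.5 to P5. Of 6 mesenchymal markers, 2 rose and none fell, with sums between 2652 and 2919.8 CPM at E18.5 and between 3364 and 3684 CPM at P5. Of 6 epithelial markers, 4 fell and 1, *Sftpc*, the surfactant gene, rose, and *Sftpc* carried most of the sum, which was between 1881 and 2735 CPM at E18.5 and between 12139 and 13731 CPM at P5. Of 10 thymus genes tested, 2 rose and none fell.

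Between E18.5 and P5 all 10 genes rose, and each of their P5 libraries lay above each of their E18.5 libraries. A gene is said here to have risen or fallen when its edgeR false discovery rate (FDR, adjusted over the 15994 genes tested) was under 0.05, and it was called when its absolute log2 fold change was also above 1. Of the 10 genes, 8, all but *Angpt1* and *Tie1*, were called higher at P5, where 17.5% of all genes tested were called higher. By FDR alone the 10 genes compare with 35.4% of all genes, and by libraries that did not overlap with 34.4%. The median log2 fold change of the 10 genes was 1.16, against 0.00 over all genes tested.

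The interval before birth, from E15.5 to E18.5, gave smaller changes than that across birth, from E18.5 to P5. The interval across birth covers more days than the one before it or the one from P5 to P8. Sizes of change and numbers of genes called are therefore not compared per day. Before birth none of the 10 genes was called, where 1.59% of all genes were called higher. By FDR alone 6 of the 10 rose (*Pecam1*, *Cdh5*, *Erg*, *Angpt2*, *Tek* and *Tie1*), compared with 11.6% of all genes, and the libraries of the same 6 did not overlap, compared with 18.3%. The rise of *Tie1* missed the FDR cutoff without E15.5 replicate 1 (edgeR FDR = 0.055), E18.5 replicate 1 (0.068) or E18.5 replicate 2 (0.057). The median log2 fold change was 0.43 for the 10 genes and -0.01 for all genes tested.

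Between P5 and P8 none of the 10 genes was called, where 2.96% of all genes were called in either direction. *Angpt1* and *Erg* fell by FDR alone, compared with 8.21% of all genes that fell. The P8 libraries lay below the P5 libraries for *Angpt1*, *Angpt2* and *Erg*, where 16.3% of all genes did so, and above them, among the 10 genes, for *Klf2*, where 20.8% of all genes did so. The median log2 fold change was -0.17 for the 10 genes and 0.00 for all genes tested. Over the whole interval from E15.5 to P8, 8 of the 10 genes were called higher, where 20.9% of all genes were. The 4 comparisons share libraries and are not independent of each other.

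**Figure D1:**
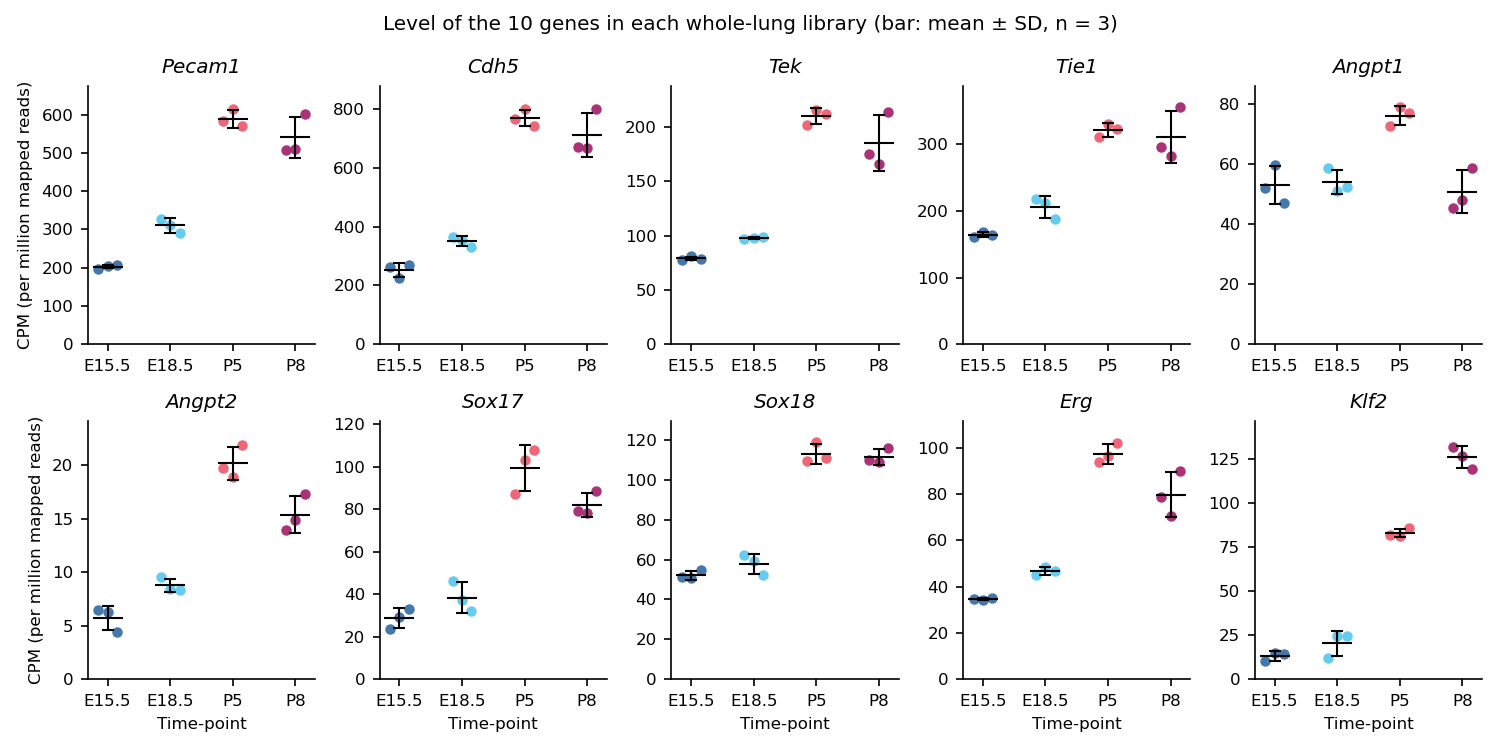
CPM of each gene in each library by time-point, with points for the 3 libraries of a time-point and bars for the mean ± SD. The P5 points lie above the E18.5 points in all 10 panels. *Angpt1* alone has a P8 range that overlaps its E15.5 range (45.4 to 58.8 CPM at P8, 47.2 to 59.7 CPM at E15.5). Its lower P8 points are replicates 1 and 2, which are high in thymus genes.

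**Figure D2:**
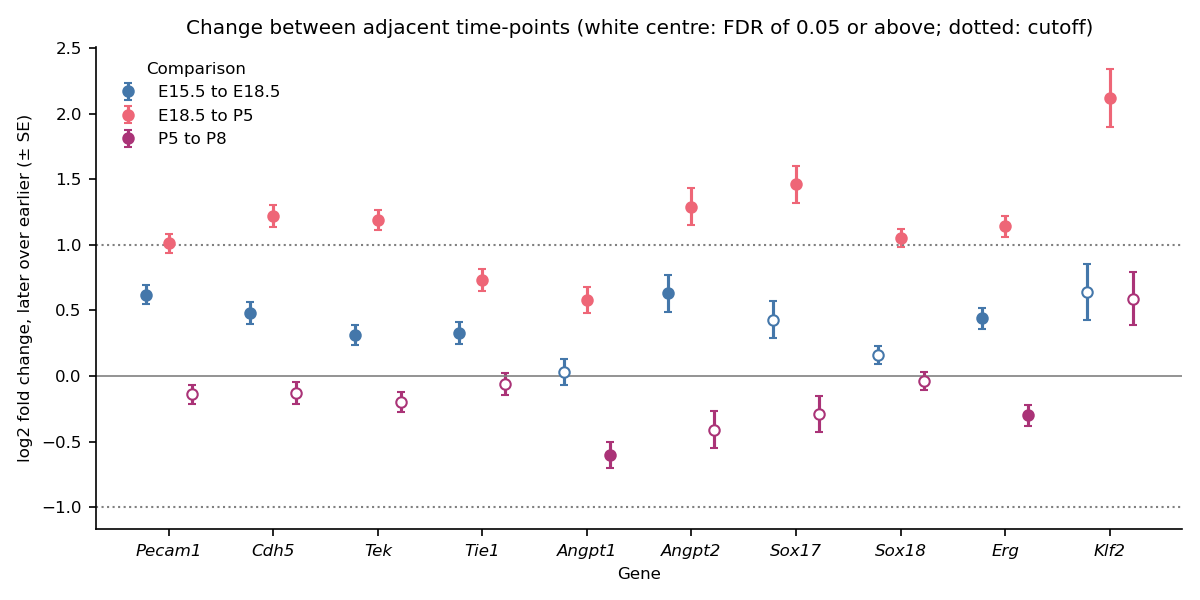
Log2 fold change ± SE of each gene between adjacent time-points from the fit of all 12 libraries, with dotted lines at the cutoff of 1 in either direction and white centres for an FDR of 0.05 or above. The E18.5 to P5 changes are positive for all 10 genes and largest for *Klf2* (2.12).

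The surface genes *Pecam1* and *Cdh5* were the most abundant of the 10 in CPM. *Pecam1* lies at chr11:106654217-106750628 on the minus strand and *Cdh5* at chr8:104101625-104144511 on the plus strand (coordinates of mm10 from GENCODE, from the start to the end of the gene). *Pecam1* was at 198, 204 and 207 CPM at E15.5, at 328, 313 and 290.4 CPM at E18.5, at 583, 616 and 570.1 CPM at P5 and at 509, 511 and 603 CPM at P8. The embryonic and postnatal libraries did not overlap, and neither did those of E15.5 and E18.5. *Cdh5* was at 262, 227 and 270.1 CPM at E15.5, at 365, 354 and 332 CPM at E18.5, at 767, 800.5 and 744 CPM at P5 and at 671, 667 and 799 CPM at P8. For both genes the P8 library with little thymus RNA, replicate 3, was higher than the other P8 libraries and within the P5 range.

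Both genes rose before and across birth. From E18.5 to P5, *Pecam1* rose 2.02-fold, which put it at the fold cutoff, and *Cdh5* rose 2.34-fold (log2 fold change 1.22, SE 0.086, edgeR FDR = 9.6e-08). *Pecam1* stayed past the FDR cutoff with each library left out, but its log2 fold change dropped below 1 without E18.5 replicate 3 (0.96), P5 replicate 1 (0.98) or P5 replicate 2 (0.99), and when libraries were scaled by total count alone (0.94). From P5 to P8 neither change passed the FDR cutoff, with log2 fold changes of -0.14 for *Pecam1* and -0.13 for *Cdh5*. Without the 3 libraries high in thymus genes these values were 0.01 and 0.02, with only replicate 3, the highest for both genes, left at P8. The number of *Pecam1* counts per *Cdh5* count was 0.807 ± 0.078 (SD, n = 3) in the E15.5 libraries and 0.886 ± 0.013 in those of E18.5. After birth it was 0.765 ± 0.0052 in the P5 libraries and 0.760 ± 0.0055 in those of P8. The E18.5 libraries lay above those after birth, while the E15.5 range (0.759 to 0.896) overlapped those of all other time-points.

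The 16 other endothelial surface and junction genes moved with them. From E18.5 to P5 all 16 rose and 13 were called higher, with a median log2 fold change of 1.38. The largest changes were those of *Calcrl*, a receptor of the calcitonin family that binds adrenomedullin together with RAMP2 (114 to 739 CPM, log2 fold change 2.78, SE 0.12, edgeR FDR = 2.9e-09), and *Ptprb*, the endothelial phosphatase VE-PTP that dephosphorylates TEK (87.2 to 409 CPM, log2 fold change 2.31, SE 0.13). The smallest were those of *Emcn*, a sialomucin of capillaries and veins (log2 fold change 0.34, edgeR FDR = 0.0026), and *Robo4*, a guidance receptor that limits vessel leak (0.41, edgeR FDR = 0.0018). The summed level of the 16 genes was between 1504 and 1617 CPM at E18.5 and between 4467 and 4693 CPM at P5. From P5 to P8, 7 of the 16 fell by FDR and none was called.

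Of the SOXF and ETS factors among the 10 genes, *Sox17* showed the largest rise across birth and *Sox18* the smallest. *Sox17* (chr1:4490931-4497354, minus strand) encodes a SOXF factor of arterial endothelium and was at 23.7, 29.1 and 33.1 CPM at E15.5, at 46.0, 37.2 and 31.8 CPM at E18.5, at 87.1, 103 and 108 CPM at P5 and at 79.0, 78.1 and 88.5 CPM at P8. The E15.5 and E18.5 ranges overlapped, and all 6 postnatal libraries lay above all 6 embryonic libraries. Before birth it changed by 0.43 on the log2 scale (SE 0.14, edgeR FDR = 0.052), and across birth by 1.46 (SE 0.14, edgeR FDR = 1.8e-06). *Sox17* shares 804 exon bases with the antisense gene *Gm37587*, and since strand was not stated for the counts, reads of the pair cannot be told apart.

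*Sox18* (chr2:181669836-181671640, minus strand), the SOXF gene with a known part in lymphatic and blood vessel development, did not change past the FDR cutoff before birth. It was at 51.3, 50.7 and 54.9 CPM at E15.5 and at 62.2, 59.5 and 52.5 CPM at E18.5, ranges that overlapped (edgeR FDR = 0.12). At P5 it was at 109.8, 119 and 111 CPM and at P8 at 109.9, 109 and 116 CPM, close to the P5 libraries. Across birth its log2 fold change was 1.05 (SE 0.070, edgeR FDR = 6.0e-08), which dropped to 0.98 without E18.5 replicate 3 and also when libraries were scaled by total count alone. The number of *Sox17* counts per *Sox18* count was 0.546 ± 0.074 (SD, n = 3) in the E15.5 libraries, 0.657 ± 0.073 in those of E18.5, 0.876 ± 0.088 in those of P5 and 0.733 ± 0.027 in those of P8. The ranges of E18.5 and P8 overlapped in this ratio.

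*Erg* (chr16:95359169-95586593, minus strand), the ETS factor that maintains endothelial junction genes, rose before and across birth. It was at 34.6, 34.3 and 35.2 CPM at E15.5 and at 44.9, 48.5 and 46.9 CPM at E18.5. At P5 it was at 93.7, 96.3 and 102 CPM, and at P8 at 78.8, 70.4 and 90.0 CPM. Its log2 fold change was 0.44 before birth (SE 0.079, edgeR FDR = 0.0035) and 1.14 across birth (SE 0.079, edgeR FDR = 8.1e-08). From P5 to P8 it fell by 0.30 on the log2 scale (SE 0.078, edgeR FDR = 0.022). That value passed the FDR cutoff in 7 of the 12 fits that each left out 1 library, and it did not without P5 replicate 1, 2 or 3 or P8 replicate 1 or 2 (edgeR FDR between 0.050 and 0.075). Without the 3 libraries high in thymus genes the log2 fold change was -0.14, with 1 library left at P8.

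Of the 13 other endothelial transcription factors, 12 were tested, and *Etv2* was not in the count table. From E18.5 to P5, 9 rose, 1 fell and 2 were called higher, with a median log2 fold change of 0.66. The 2 called were *Gata2*, a zinc finger factor of endothelium and blood progenitors (15.4 to 76.6 CPM, log2 fold change 2.40, SE 0.11, edgeR FDR = 5.1e-09), and *Klf4*, the relative of *Klf2* (5.08-fold, log2 fold change 2.34, SE 0.15, edgeR FDR = 4.6e-08). *Nr2f2*, the factor of venous identity, fell by 0.43 on the log2 scale (edgeR FDR = 3.9e-04). *Ets2*, an ETS factor of many cell types, had a log2 fold change of -0.13 that did not pass the FDR cutoff.

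The ligands of the pathway followed different courses. *Angpt1* (chr15:42424723-42676977, minus strand) was at 52.2, 59.7 and 47.2 CPM at E15.5, at 58.6, 51.0 and 52.4 CPM at E18.5, at 72.6, 78.9 and 76.9 CPM at P5 and at 45.4, 48.2 and 58.8 CPM at P8. Its P5 libraries lay above those of the other time-points, whose ranges overlapped each other. *Angpt1* rose from E18.5 to P5 (log2 fold change 0.58, SE 0.10, edgeR FDR = 2.1e-04) and fell by 0.60 from P5 to P8 (SE 0.10, edgeR FDR = 0.0038). The fall passed the FDR cutoff with each of the 12 libraries left out, but without the 3 libraries high in thymus genes together it was -0.40 (edgeR FDR = 0.066), with 1 library left at P8.

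From E15.5 to P8 *Angpt1* had a log2 fold change of 0.01 (SE 0.10, edgeR FDR = 0.92). Without the 3 libraries high in thymus genes it was 0.32, with 1 library left at P8, so no absence of change can be read from the 12 libraries. *Angpt1* shares 737 exon bases with the antisense gene *Gm17473*, whose reads could not be separated from it. Of 10 marker genes of pericytes and vascular smooth muscle, a source of ANGPT1, 5 rose and 3 fell between E18.5 and P5. Their summed level was between 1049 and 1153 CPM at E18.5, between 1137 and 1234 CPM at P5 and between 1094 and 1198 CPM at P8, ranges that overlapped for adjacent time-points. Its part in the level of *Angpt1* was not tested.

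*Angpt2* (chr8:18690263-18741562, minus strand) was the least abundant of the 10 genes and rose at both intervals up to P5. It was at 6.42, 6.27 and 4.39 CPM at E15.5, at 9.50, 8.44 and 8.31 CPM at E18.5, at 19.7, 18.9 and 21.9 CPM at P5 and at 13.9, 14.9 and 17.3 CPM at P8. The ranges of the 4 time-points did not overlap. The fewest counts behind any of these values was 223. It rose by 0.63 on the log2 scale before birth (SE 0.14, edgeR FDR = 0.0099) and by 1.29 across birth (SE 0.14, edgeR FDR = 4.0e-06). The change from P5 to P8, -0.41 (SE 0.14), did not pass the FDR cutoff (edgeR FDR = 0.057). *Angpt2* lies inside the gene *Mcph1* on the opposite strand, with no exon base in common.

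The ratio of *Angpt2* to *Angpt1* RNA therefore differed between embryonic and postnatal lungs. It is a ratio of whole-lung RNA and not of ligand protein, and the part of the endothelial share of the lung in it was not tested. Reads of the antisense gene *Gm17473* could not be separated from the *Angpt1* counts. There were 0.123, 0.105 and 0.0928 *Angpt2* counts per *Angpt1* count in the E15.5 libraries and 0.162, 0.165 and 0.159 in those of E18.5. After birth there were 0.271, 0.240 and 0.285 in the P5 libraries and 0.305, 0.309 and 0.295 in those of P8. The ranges did not overlap between any of the time-points, and the ratio was higher at each later time-point. The mean log2 ratio was 1.11 higher in the 6 postnatal than in the 6 embryonic libraries, or 2.16-fold. A two-sided exact permutation test gave p = 0.0022, the smallest p this design can give. It treats littermates as independent, so this p does not measure the spread between litters. Since the ratio was higher at each step, the test does not place the change at birth. A ratio within a library does not depend on how libraries are scaled. Between adjacent time-points 3 against 3 libraries cannot give a p below 0.10, so those steps are given as values. The ratio of counts is also no ratio of molecules, since the gene models differ in length. Per length, *Angpt1* was at 14.6 ± 0.614 and *Angpt2* at 5.47 ± 0.419 CPM per kb at P5 (SD, n = 3).

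Upstream of these receptors, the RefSeq promoter windows (250 bases before to 50 bases after the annotated start, GRCm38.p6) hold matches to short motifs of the factors above. Windows were found for 4 of the 10 genes, *Tek*, *Tie1*, *Klf2* and, at 3 starts, *Erg*. The 2 receptor windows are shown because the receptors changed by different amounts, but a link of motifs to these changes was not tested. Capitals mark, on both strands, GGAA of ETS factors, ACAAT of SOX factors and CACCC of Krüppel-like factors. The first is chr4:94739039-94739338 on the plus strand and the second chr4:118489800-118490099 on the minus strand, both given 5′ to 3′.
Tek: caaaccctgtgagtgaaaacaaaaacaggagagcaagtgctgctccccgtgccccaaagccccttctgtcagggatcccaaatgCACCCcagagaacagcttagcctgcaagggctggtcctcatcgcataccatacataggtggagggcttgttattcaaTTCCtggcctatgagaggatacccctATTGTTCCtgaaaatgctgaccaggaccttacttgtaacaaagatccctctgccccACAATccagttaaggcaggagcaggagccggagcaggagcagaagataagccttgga
Tie1: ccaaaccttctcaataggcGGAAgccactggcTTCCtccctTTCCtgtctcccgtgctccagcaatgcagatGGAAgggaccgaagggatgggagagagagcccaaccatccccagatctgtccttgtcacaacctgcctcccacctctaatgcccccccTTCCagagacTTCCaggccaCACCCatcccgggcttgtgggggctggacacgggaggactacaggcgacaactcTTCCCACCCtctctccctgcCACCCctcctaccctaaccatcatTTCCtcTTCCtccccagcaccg
The *Tie1* window held 9 ETS matches, a number that 1.59% of the 32851 windows in the genome-wide table reach, and 3 Krüppel-like matches, a number that 9.35% of windows reach. The *Tek* window held 2 ETS matches and 2 SOX matches, of which 1 ETS and 1 SOX match share 1 base. GGAA is found at least 1 time in 96.0% of all windows, CACCC in 57.5% and ACAAT in 31.0%, and the *Tie1* window held no ACAAT. A match is a run of letters and not a measured binding site.

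The receptor *Tek* rose more than its relative *Tie1*. *Tek* (chr4:94739289-94874976, plus strand) was at 77.9, 80.9 and 78.6 CPM at E15.5, at 97.0, 98.1 and 98.6 CPM at E18.5, at 202, 216 and 212 CPM at P5 and at 175, 166 and 214 CPM at P8. *Tie1* (chr4:118471191-118490061, minus strand) was at 161, 169 and 164 CPM at E15.5, at 218, 212 and 188 CPM at E18.5, at 311, 331 and 323 CPM at P5 and at 296, 283 and 356 CPM at P8. For both genes the first 3 time-points did not overlap, and the P8 libraries spread around the P5 level, with replicate 3 highest. Across birth the log2 fold change was 1.19 for *Tek* (SE 0.076, edgeR FDR = 4.4e-08) and 0.73 for *Tie1* (SE 0.084, edgeR FDR = 6.3e-06). From E15.5 to P8, *Tie1* rose 1.99-fold, just under the cutoff, and passed it under 8 of the alternatives that kept both cutoffs. Without the 3 libraries high in thymus genes the *Tie1* log2 fold change was 1.21, with only replicate 3, the highest for *Tie1*, left at P8.

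The number of *Tie1* counts per *Tek* count was 2.07, 2.09 and 2.09 at E15.5 and 2.25, 2.16 and 1.90 at E18.5. After birth it was 1.54, 1.53 and 1.53 at P5 and 1.69, 1.71 and 1.67 at P8. All 6 postnatal libraries lay below all 6 embryonic libraries, and the mean log2 ratio fell by 0.38. A two-sided exact permutation test over 6 and 6 libraries gave p = 0.0022, the smallest p this design can give. Here too littermates were treated as independent, so the spread between litters is not measured. The P8 libraries lay above the P5 libraries. The number of *Angpt1* counts per *Tek* count, ligand to receptor, was 0.670 ± 0.069 (SD, n = 3) at E15.5 and 0.552 ± 0.046 at E18.5, then 0.363 ± 0.0029 at P5 and finally 0.275 ± 0.015, with ranges that overlapped only between E15.5 and E18.5.

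**Figure D3:**
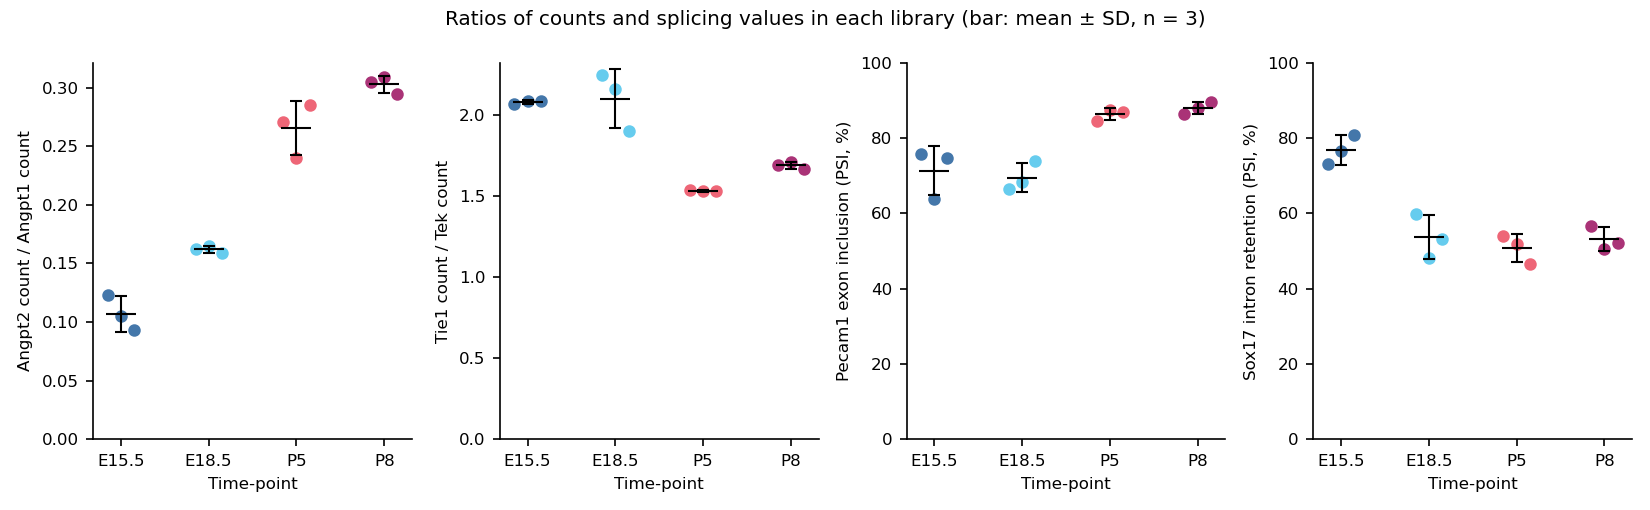
Values in each library by time-point, with points for the libraries and bars for the mean ± SD (n = 3), of *Angpt2* counts per *Angpt1* count, *Tie1* counts per *Tek* count, and the percent spliced in (PSI) of a *Pecam1* exon and a *Sox17* intron. The ligand ratio was highest at P8 (0.295 to 0.309), the receptor ratio was lowest at P5 (1.53 to 1.54), the *Pecam1* exon was between 84.5% and 89.6% after birth, and the *Sox17* intron was highest at E15.5 (73.1% to 81.0%).

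The other genes of the angiopoietin pathway did not move as a block. Of 15 listed, 14 were tested and *Angpt4*, a further ligand, was not in the count table. From E18.5 to P5, 8 rose, 3 fell and 3 did not pass the FDR cutoff, with a median log2 fold change of 0.24. Called higher were *Ptprb* and *Dok2*, an adaptor that binds activated TEK (2.52 to 5.50 CPM, log2 fold change 1.21, SE 0.22, edgeR FDR = 3.1e-04). All 6 leukocyte markers were also called higher in this interval, and their part in the level of *Dok2* was not tested. Called lower was *Grb7*, an adaptor of receptor tyrosine kinases (52.6 to 23.8 CPM, -1.06, SE 0.065, edgeR FDR = 3.3e-08), and *Svep1*, an extracellular matrix protein that binds TIE1, fell by 0.59 (edgeR FDR = 0.031).

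*Klf2* changed most among the 10 genes. It lies at chr8:72319033-72321656 on the plus strand. Its promoter window (chr8:72318812-72319111) is shown because it holds a match to the pattern searched for MEF2 factors. The pattern was CTA and TAG with 4 bases of any kind between them, and flow signals are known to reach *Klf2* through MEF2 factors. Capitals mark that match together with the matches to the ETS and Krüppel-like motifs.
Klf2: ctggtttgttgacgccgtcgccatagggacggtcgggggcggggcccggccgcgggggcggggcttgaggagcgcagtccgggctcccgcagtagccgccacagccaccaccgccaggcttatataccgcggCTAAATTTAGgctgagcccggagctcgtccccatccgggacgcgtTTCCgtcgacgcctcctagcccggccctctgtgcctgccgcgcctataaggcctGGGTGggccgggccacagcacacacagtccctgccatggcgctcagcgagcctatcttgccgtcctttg
The MEF2 pattern, with its middle bases left free, is found in 3.69% of all 32851 windows and in none of the other windows of the 10 genes.

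*Klf2* was at 10.2, 15.1 and 14.1 CPM at E15.5, at 12.2, 24.3 and 24.5 CPM at E18.5, at 82.0, 81.2 and 85.9 CPM at P5 and at 132, 127 and 119.7 CPM at P8. E18.5 replicate 1 lay within the E15.5 range and apart from the other E18.5 libraries, and the step between these time-points did not pass the FDR cutoff (log2 fold change 0.64, SE 0.21, edgeR FDR = 0.052). From E18.5 to P5, *Klf2* rose 4.34-fold (log2 fold change 2.12, SE 0.22, edgeR FDR = 2.2e-06). All P8 libraries lay above all P5 libraries, but the step of 0.59 (SE 0.20) did not pass the FDR cutoff (edgeR FDR = 0.065). From E15.5 to P8 the rise was 10.2-fold (log2 fold change 3.35, SE 0.23, edgeR FDR = 4.1e-08).

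Genes of other cells that express *Klf2* moved with it. The summed level of 6 leukocyte markers was between 39.3 and 45.1 CPM at E18.5, between 166 and 209.7 CPM at P5 and between 285 and 320.3 CPM at P8, and all 6 were called higher from E18.5 to P5. The summed level of 8 lymphocyte markers was between 0.308 and 1.01 CPM at E18.5, between 48.7 and 66.7 CPM at P5 and between 38.9 and 161 CPM at P8, with *Cd3e* under 0.1 CPM on average at E18.5. All 8 were called higher from E18.5 to P5. Of 8 immediate early genes, which respond to handling of tissue, 6 rose and 1 fell between E18.5 and P5, and their summed level was between 212 and 218 CPM at E18.5, between 253 and 275 CPM at P5 and between 352 and 392 CPM at P8. The part of each of these in the level of *Klf2* was not tested. At P8, *Klf2* was lowest in replicate 3, where thymus and lymphocyte genes were also lowest.

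Of the 16 kinases, scaffolds and targets listed for *Klf2*, 12 rose, 2 fell and 5 were called higher from E18.5 to P5, with a median log2 fold change of 0.42. The largest changes were those of *Klf4* and *S1pr1*, the sphingosine 1-phosphate receptor of endothelium and lymphocytes (54.0 to 244 CPM, log2 fold change 2.26, SE 0.12, edgeR FDR = 1.3e-08). *Nos3*, the endothelial nitric oxide synthase and a known target, went from 12.5 to 14.5 CPM, a rise of 0.30 on the log2 scale (SE 0.099, edgeR FDR = 0.017), and rose again from P5 to P8 by 0.51 (edgeR FDR = 0.0067). *Mapk7*, the kinase ERK5 upstream of MEF2, fell by 0.44 (edgeR FDR = 2.8e-04), and *Map2k5*, which activates it, fell by 0.20 (edgeR FDR = 0.016).

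Whether a gene changed by more or less than the endothelium as a whole was asked by scaling the libraries so that the mean log2 level of the 16 other endothelial surface and junction genes stayed constant. On this scale the median of all genes tested was -1.47 from E18.5 to P5, and 81.8% of all genes tested were lower by FDR. Of the 10 genes, 7 were lower, *Klf2* was higher, where 8.23% of all genes were, and *Sox17* (0.00) and *Angpt2* (-0.17) did not pass the FDR cutoff. The median over the 10 genes was -0.30. The lowest values were those of *Angpt1* (-0.88, SE 0.090, edgeR FDR = 2.8e-07) and *Tie1* (-0.73, SE 0.066, edgeR FDR = 7.7e-08), and *Klf2* was at 0.65 (SE 0.23, edgeR FDR = 0.015).

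The direction depended on the reference for most of the other genes. With the other endothelial transcription factors as the reference, which rose less, *Pecam1* (0.23), *Cdh5* (0.45), *Tek* (0.41), *Sox18* (0.27) and *Erg* (0.36) were higher instead of lower, and *Sox17* (0.68) and *Angpt2* (0.51) were higher. With *Klf2* this made 8 of the 10 genes higher, where 14.7% of all genes were. With *Cdh5* as the reference 4 of the other 9 genes passed the FDR cutoff, where 87.6% of all genes did in either direction. *Klf2* kept its direction and passed the FDR cutoff with each of the references, at 0.88 against *Cdh5* and 1.33 against the transcription factors. *Angpt1* and *Tie1* kept a negative sign, at -0.64 and -0.49 against *Cdh5* and at -0.20 (edgeR FDR = 0.053) and -0.05 (edgeR FDR = 0.49) against the transcription factors. The reference was treated as free of error, and it includes *Ptprb* and *S1pr1*.

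**Figure D4:**
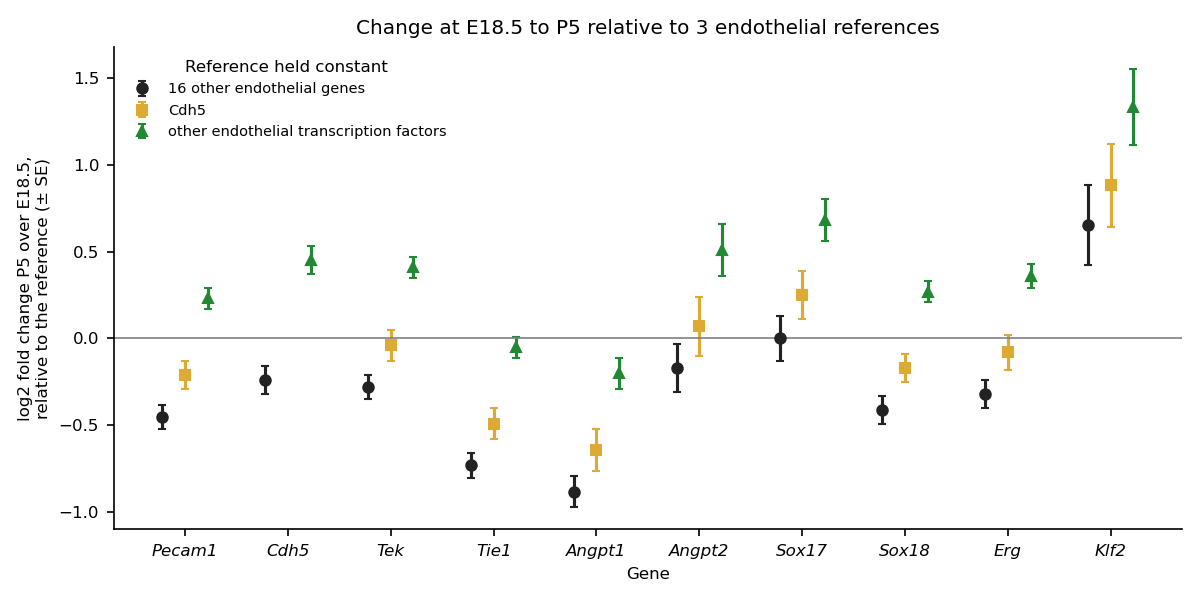
Log2 fold change ± SE between E18.5 and P5 of each gene after libraries were scaled to 1 of 3 references (16 other endothelial surface and junction genes, *Cdh5* alone, or other endothelial transcription factors). *Klf2* lies above 0 with each reference. *Angpt1* and *Tie1* lie below 0 with each, but neither passes the FDR cutoff against the transcription factors (-0.20 and -0.05). *Pecam1*, *Cdh5*, *Tek*, *Sox18*, *Erg* and *Angpt2* change sign between references.

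In the other intervals, which are shorter, fewer genes departed from the endothelial reference. From E15.5 to E18.5, 3 of the 10 genes passed the FDR cutoff on this scale, where 56.5% of all genes did in either direction. *Pecam1* was higher (0.24, edgeR FDR = 0.0097), and *Sox18* (-0.23, edgeR FDR = 0.026) and *Angpt1* (-0.35, edgeR FDR = 0.0058) were lower. With *Cdh5* as the reference 2 of the other 9 genes passed, where 66% of all genes did, and *Pecam1* was not among them (0.14, edgeR FDR = 0.16). With the transcription factors 4 of the 10 passed, where 30% of all genes did, and *Sox18* (-0.02, edgeR FDR = 0.84) and *Angpt1* (-0.14, edgeR FDR = 0.23) were not among them. From P5 to P8, 4 of the 10 passed, where 31.8% of all genes did. *Klf2* (0.86, edgeR FDR = 0.013) and *Angpt1* (-0.35, edgeR FDR = 0.012) each passed in 11 of the 12 fits that left out 1 library. *Sox18* passed in 5 and *Tie1* in 4. No fit on this scale left out all libraries high in thymus genes together. There were 0.197 and 0.191 *Klf2* counts per *Cdh5* count in P8 replicates 1 and 2, which are high in thymus genes. In P8 replicate 3 there were 0.15. On the TMM scale without those libraries, the *Klf2* log2 fold change from P5 to P8 was 0.50. With *Cdh5* as the reference 1 of the other 9 genes passed between P5 and P8, where 10.8% of all genes did, and with the transcription factors 2 of the 10, where 18% of all genes did.

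Levels of different genes can be compared only per length. In CPM per kb of exon, *Cdh5* was highest at each time-point (60.2 ± 5.39 at E15.5 and 183 ± 6.74 at P5, SD, n = 3), and *Angpt2* was lowest (1.54 ± 0.308 and 5.47 ± 0.419). At E15.5, *Tie1* (33.5), *Pecam1* (32.6) and *Sox18* (32.3) followed *Cdh5*, and neighbours in that order overlapped. At P5 the order was *Cdh5*, *Pecam1*, *Sox18*, *Tie1*, *Klf2*, *Tek*, *Erg*, *Sox17*, *Angpt1* and *Angpt2*, and only *Klf2* and *Tek* overlapped. *Klf2* went from place 8 at E15.5 (7.11 ± 1.40) to place 4 at P8 (68.5 ± 3.45), where its range overlapped those of *Sox18* and *Tie1*. *Angpt1* went from place 6 to place 9 over the same time.

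**Figure D5:**
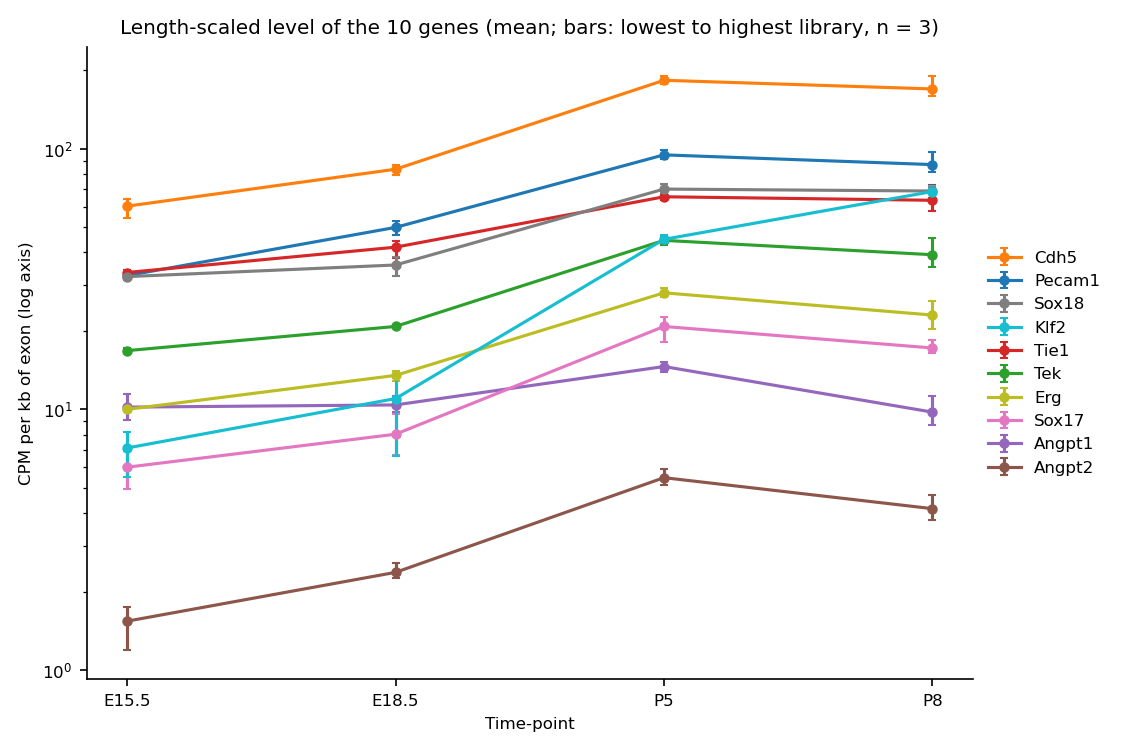
Mean CPM per kb of exon (log axis) of the 10 genes by time-point, with bars from the lowest to the highest of 3 libraries. *Cdh5* is highest and *Angpt2* lowest throughout, and *Klf2* crosses the lines of *Angpt1*, *Erg*, *Tek* and *Tie1* between E15.5 and P8.

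Across the 12 libraries, Pearson's r of log2 CPM was between 0.93 and 0.99 for pairs of the 8 genes other than *Angpt1* and *Klf2*. It was between 0.88 and 0.95 for *Klf2* with these 8, and *Klf2* was the one gene of the 10 whose P8 libraries all lay above its P5 libraries. It was between 0.37 and 0.69 for *Angpt1* with the other genes. These are descriptions, as the points share the time-points and their litters, and the step between embryonic and postnatal libraries weighs in each of them. Over the 10993 genes with a mean of at least 10 CPM, the genes most like *Pecam1* were *Acvrl1* (r = 0.999), *Ackr2* and *Timp3*. Those most like *Cdh5* were *Egflam*, *Ahr* and *Tgfbr2*, and those most like *Tek* were *Klhl5*, *Clic4* and *Rassf8*. For *Tie1* they were *Tgfb1i1*, *Cldn18* and *Elovl5*, and for *Angpt2* they were *Plpp6*, *Snx13* and *Rnf13*. *Angpt1* had weaker neighbours, with *Azi2*, *Fli1* (r = 0.940 each) and *Zfp229*. For *Sox17* the closest were *Spop*, *Klf9* and *Tspan13*, for *Sox18* *Rabgef1*, *Scnn1g* and *Fuca1*, and for *Erg* *Prex2*, *Rapgef5* and *Dram2*. *Klf2* was closest to *Irf8*, a transcription factor of myeloid and B cells (r = 0.993), *Slc29a1* and *Il17ra*.

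Splicing events of *Pecam1* and *Sox17* were listed by the study for a difference in these same libraries, so their values are a description with no test. The paper also assayed the *Pecam1* event by RT-PCR on independent RNA of E18.5 and P5 lungs. It reports that most events assayed in this way were borne out. The *Pecam1* event MmuEX0034408 is an exon, and its PSI, the share of transcripts that include it, was 75.7%, 63.8% and 74.7% in the E15.5 libraries and 66.5%, 68.2% and 73.8% in those of E18.5. After birth it was 84.5%, 87.6% and 86.9% in the P5 libraries and 86.5%, 88.0% and 89.6% in those of P8. All 6 postnatal libraries lay above all 6 embryonic libraries, and the E15.5 and E18.5 ranges overlapped, as did those of P5 and P8. Between 385 and 1663 corrected reads stood behind each value.

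The *Sox17* event MmuINT0150648 is an intron, and its PSI is the share of transcripts that retain it. It was 73.1%, 76.5% and 81.0% in the E15.5 libraries and 59.9%, 48.0% and 53.3% in those of E18.5. After birth it was 53.9%, 51.8% and 46.7% in the P5 libraries and 56.8%, 50.5% and 52.2% in those of P8. The E15.5 libraries stood above the others, and the remaining time-points overlapped. The E15.5 values rest on 77.3 to 114 reads and were put by the splicing tool in a class of very low coverage in each library. The E18.5 values rest on 86.4 to 145 reads, a range that overlaps that of E15.5, and those after birth on 245 to 387 reads. The antisense gene that overlaps *Sox17* could add reads to the intron, and its part was not tested. In these values the step lay between E18.5 and P5 for the *Pecam1* exon and between E15.5 and E18.5 for the *Sox17* intron. With very low coverage at E15.5, whether the *Sox17* step is a change of splicing was not tested.

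Most of the listed genes of arteries, veins and lymphatics were higher after birth as well, but *Nr2f2* and *Ephb4* of venous endothelium were not. Of 14 arterial, venous and lymphatic genes, 11 rose, 1 fell and 8 were called higher from E18.5 to P5, with a median log2 fold change of 1.55. The largest changes were those of *Bmx*, a kinase of arterial endothelium (1.07 to 6.42 CPM, log2 fold change 2.68, SE 0.49, edgeR FDR = 3.5e-04), and *Vwf*, von Willebrand factor of larger vessels and platelets (24.3 to 119 CPM, 2.38, SE 0.095, edgeR FDR = 1.6e-09). The smallest were those of *Nr2f2*, given above, and *Ephb4*, a receptor of venous endothelium, with a log2 fold change of -0.14 that did not pass the FDR cutoff (edgeR FDR = 0.051). *Prox1*, a marker of lymphatic endothelium in the paper, had a log2 fold change of 0.35 that did not pass it either (edgeR FDR = 0.068). *Vwf* rose again from P5 to P8 by 0.59 (SE 0.089, edgeR FDR = 0.0023). Platelet genes moved with *Pecam1* and *Vwf*, which platelets also express. Of 7 listed, 6 were tested and all 6 rose from E18.5 to P5, with a summed level between 12.2 and 18.3 CPM at E18.5 and between 29.0 and 35.7 CPM at P5, and their part was not tested.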

How the data were processed

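RNA of whole lungs from 12 libraries (3 at each of 4 time-points) was used. The authors mapped reads to mm10 with TopHat2 2.1.1 and Bowtie2 2.3.4 and counted reads per gene with HTSeq 0.10.0, and the deposited counts are not normalized. The deposited CPM values are those counts scaled to the mapped reads of each library, and the deposited percent spliced in values come from VAST-TOOLS. Columns of read-coverage classes deposited with them gave the reads and the coverage class behind a value. Strandedness of the counting is not given in the sources used here.

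Counts were tested with edgeR 4.0.16 (TMM, quasi-likelihood F-test, 1 fit of 12 libraries, 8 residual degrees of freedom) over the 15994 genes that reached 1 CPM in 3 or more libraries, with Benjamini-Hochberg adjustment over all of them. Cutoffs were an absolute log2 fold change of 1 and an FDR of 0.05. Ratios of counts were tested with an exact permutation test (scipy 1.17.1). No 2 libraries of a time-point agreed within sampling noise. Likeness used log2 CPM with a prior count of 2. Coordinates, exon lengths and overlaps came from GENCODE (GRCm38), and promoters from RefSeq.

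The genes and gene lists were chosen with earlier results of these data known. In all comparisons the 10 genes are named, and of each list the 2 genes with the highest and the 2 with the lowest change across birth (E18.5 to P5, log2) may be named, plus *Ptprb*, *Angpt4*, *Klf4*, *Nos3* and *Vwf*, and for each of the 10 genes the 3 genes most like it. Marker genes named beyond this rule (*Cd3e*, *Sftpc*, *Etv2*, *Prox1*, *S1pr1* as part of the reference) were chosen after their values were seen. Alternatives were other scalings, other filters, DESeq2 1.42.0, a fit of the compared time-points alone, a replicate block, FDR alone, other references and left-out libraries.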

Additional observations from a re-analysis of the deposited data

How the results depend on the processing

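The 10 genes were each recomputed in 4 comparisons under 21 alternatives, which gave 840 values. Of these, 804 kept their direction and stayed called or not called, 6 lost a call, 19 gained one, and 11 changed sign. The alternative of FDR alone drops the fold cutoff, and a gene counted as called under it by FDR. Apart from those of *Tie1* from E15.5 to P8, the gains all came from that alternative. With FDR alone, 6 genes passed before birth (E15.5 to E18.5) and 2 between P5 and P8, in place of 0 with both cutoffs. The number called from E18.5 to P5 was 6 with library size only and between 6 and 8 with single libraries left out, and from E15.5 to P8 it was 8 or 9 throughout.

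By the FDR cutoff alone, over the 20 alternatives that refit the data, 765 of 800 values stayed on their side, 11 lost the cutoff and 24 gained it. The losses were those of *Erg* from P5 to P8 (7), *Tie1* before birth (3) and *Angpt1* from P5 to P8 (1). Before birth *Sox17* gained it under 6 alternatives, among them without E15.5 replicate 3 (0.55) or E18.5 replicate 3 (0.55), *Klf2* under 5, among them without E18.5 replicate 1 (0.89), and *Sox18* without E18.5 replicate 3 (0.23). The first 2 of these also gained it without P8 replicate 3 (0.44 and 0.65). From P5 to P8 *Angpt2* and *Klf2* gained it under 4 each, among them without E15.5 replicate 3 for *Angpt2* (-0.41) and without E18.5 replicate 1 for *Klf2* (0.59), and *Angpt2* (-0.52), *Pecam1* (-0.24) and *Tek* (-0.33) without P8 replicate 3. *Sox17* gained it there with 2 time-points in the fit (-0.29).

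Sign changes concerned values near 0. For *Angpt1* from E15.5 to E18.5 the lowest value with a library left out was -0.04 and the highest 0.13. From E15.5 to P8 *Angpt1* was -0.06 with library size only, between -0.11 and 0.10 with 1 library left out, and 0.32 without E15.5 replicate 2, P8 replicate 1 and P8 replicate 2. With 1 library or these 3 left out, the P5 to P8 values were between -0.24 and 0.01 for *Pecam1*, -0.23 and 0.02 for *Cdh5*, -0.08 and 0.00 for *Sox18*, and -0.18 and 0.12 for *Tie1*, which was also 0.01 without P8 replicate 2.

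On the scale of the other endothelial genes, 4 of 9 genes passed the FDR cutoff from E18.5 to P5 with *Cdh5* as the reference, in place of 8 of 10. From P5 to P8 it was 1 with *Cdh5*, 2 with the transcription factors and between 1 and 4 with a library left out, in place of 4. The causes were not tested.

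Replicate numbers are shared between time-points, but same-numbered libraries deviated together with correlations between -0.34 and 0.30, so the numbers do not pair the samples. With the number as a replicate block, 0, 8, 0 and 8 of the 10 genes were called in the 4 comparisons, as without it, and 2 genes in place of 4 passed from P5 to P8 on the endothelial scale. Over all genes the calls went from 487 to 456, from 4289 to 4308, from 474 to 414 and from 5174 to 5171.

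The log2 ratio of *Angpt2* to *Angpt1* stayed between 1.01 and 1.18 with a library left out and was 0.99 without the 3 libraries above, and that of *Tie1* to *Tek* stayed between -0.40 and -0.36 and was -0.42. Depth did not limit the gene values, all of which rest on 223 counts or more, but the *Sox17* intron at E15.5 rests on 114 reads or fewer.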
